A study of Mus musculus with 12 samples.

Results

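The genes described here encode the plasminogen activators Plau and Plat, the activator receptor Plaur, the serine protease inhibitors Serpine2, Serpinb2 and Tfpi2, and the metalloproteinase inhibitors Timp1, Timp2 and Timp3. These 9 genes were picked from 21367 genes named on the array, chosen by their probes' signal over the 4 groups of this study and with earlier results on the same arrays known. All 9 were among the 14443 genes tested, and each was well above background on all 12 arrays. Timp2 had 2 probes and each other gene had 1. Because the groups' own values chose the genes, their levels and differences are given as a description with no test.

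The cells were mouse embryonic fibroblasts, primary connective tissue cells that were grown from C57BL/6 embryos at E12.5 to E13.5 and carried viral vectors. RASV12 + shp53 cells (named TS cells by the submitters) received the vector for the oncogenic RASV12 first and the vector for a short hairpin RNA against p53 (shp53) afterwards. In shp53 + RASV12 cells (T cells) the same vectors were given in the opposite order. RASV12 cells and shp53 cells carried 1 vector each. Each group had 3 arrays that the submitters describe as independent biological replicates. All groups carried at least 1 vector and no untransduced group was analysed here, so every difference is between transduced cultures. The promoters in the vectors, the time since transduction, the litter of origin and whether cultures were clonal are not given in the sources used here. The series title asks how transformation after senescence compares with transformation without it.

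Plasmin is a broad serine protease of the extracellular space that is cut from plasminogen by urokinase (Plau) or by the tissue-type activator (Plat), and urokinase is held at the cell surface by its receptor, Plaur. Serpins trap these proteases in inactive complexes, and Kunitz-type inhibitors such as Tfpi2 block plasmin directly. Plasmin in turn can activate several matrix metalloproteinases, which the TIMPs inhibit. Fibroblasts and macrophages both make components of this system, and senescent fibroblasts are known for secreting proteases and their regulators.

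Signals are given as log2 of the processed spot signal relative to the 75th percentile of the same array, and a unit of 1 is a doubling of the signal. Differences are given with the standard error (SE) of a limma model fitted over all genes and arrays. A gene was called where its Benjamini-Hochberg adjusted p was under 0.05. Levels of different genes come from different probes and are not set against each other.

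Promoter windows of the 9 genes were searched for motifs of AP-1 and ETS factors, transcription factors that in general lie downstream of RAS signalling, and for 2 core promoter motifs. RefSeq windows of 250 bases before to 50 bases after a start site (GRCm38.p6) were matched for 7 of the 9 genes, in 10 windows. Plau and Plat had no window and were not searched. The AP-1 motif TGANTCA, searched on both strands, stood in 4 of the 10 windows, which belong to 3 genes, Plaur, Serpinb2 and Tfpi2. It is found in 7.81% of all 32817 RefSeq windows of this length. Their windows are shown 5′ to 3′ on the strand of the gene, because among the 7 genes only these hold the AP-1 match, which is in capitals.
Plaur, chr7:24462233-24462532, plus strand: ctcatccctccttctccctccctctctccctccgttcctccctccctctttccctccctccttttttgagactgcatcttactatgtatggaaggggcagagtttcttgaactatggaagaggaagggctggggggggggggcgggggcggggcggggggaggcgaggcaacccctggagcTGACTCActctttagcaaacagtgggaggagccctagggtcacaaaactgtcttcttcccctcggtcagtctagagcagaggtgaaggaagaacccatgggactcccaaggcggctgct
Serpinb2, chr1:107511173-107511472, plus strand: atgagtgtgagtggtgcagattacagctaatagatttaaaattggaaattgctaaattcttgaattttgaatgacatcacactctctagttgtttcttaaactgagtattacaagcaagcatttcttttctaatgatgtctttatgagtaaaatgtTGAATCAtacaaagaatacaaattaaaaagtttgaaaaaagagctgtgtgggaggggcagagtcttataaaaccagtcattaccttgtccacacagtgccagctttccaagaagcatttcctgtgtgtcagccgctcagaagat
Tfpi2, chr6:3968326-3968625, minus strand: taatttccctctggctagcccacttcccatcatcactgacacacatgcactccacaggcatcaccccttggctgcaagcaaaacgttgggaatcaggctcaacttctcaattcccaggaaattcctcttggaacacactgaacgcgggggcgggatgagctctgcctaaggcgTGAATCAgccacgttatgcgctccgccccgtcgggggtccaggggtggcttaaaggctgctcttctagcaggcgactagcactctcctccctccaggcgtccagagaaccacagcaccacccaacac
The match began at -69 from the start site of Plaur, as TGACTCA, at -94 from that of Serpinb2 and at -77 from that of Tfpi2, both as TGAATCA. A second Serpinb2 window overlaps the printed one and holds the same match, whereas both other Tfpi2 windows, at start sites farther upstream, do not hold it. No window of the 7 genes held the ETS motif CCGGAAG, which is in 8.86% of all windows. The TATA box TATAAA, in 13.6% of all windows, was found only for Serpinb2, at -29 from the start site. The GC box GGGCGG, in 35.6% of all windows, had 6 matches for Serpine2, 3 for Plaur, 2 each for Tfpi2 and Timp3 and 1 each for Timp1 and Timp2. None of these matches overlapped an AP-1 match. A match is a stretch of letters and was not tested as a binding site.

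The arrays were checked before the genes were compared. Between 56.6% and 62.4% of the spots on an array were well above background, none was saturated, and the small number of arrays limits precision. In each group 1 pair of arrays lay closer together (r across genes of 0.993 to 0.998) than the remaining array did to either (0.967 to 0.981). The arrays standing apart were replicate 1 of RASV12 + shp53 cells, replicate 1 of shp53 + RASV12 cells, replicate 2 of RASV12 cells and replicate 2 of shp53 cells. Trp53, the target of the hairpin, had a mean log2 signal of -3.99 ± 0.15 in RASV12 + shp53 cells, -3.61 ± 0.31 in shp53 + RASV12 cells, -0.56 ± 0.20 in RASV12 cells and -3.27 ± 0.25 in shp53 cells (SD, n = 3 each), so that RASV12 cells were the high group. All 10 fibroblast markers were well above background on every array. In RNA from whole cultures, fewer cells of a kind and less RNA per cell cannot be told apart.

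Plau, which encodes urokinase, was highest in RASV12 cells and lowest in shp53 cells, and both groups with 2 vectors lay between. Its log2 signal was 0.41, 0.17 and 0.09 in RASV12 + shp53 cells and -0.58, -0.30 and -0.57 in shp53 + RASV12 cells. The other groups read 1.46, 1.67 and 1.58 in RASV12 cells and -1.54, -0.90 and -1.55 in shp53 cells. No 2 groups overlapped. RASV12 cells exceeded shp53 cells by 2.90 ± 0.19 log2 units (SE), or 7.47-fold. The order of the vectors gave a smaller gap, with RASV12 + shp53 cells above shp53 + RASV12 cells by 0.71 ± 0.19 (1.63-fold). RASV12 + shp53 cells differed from RASV12 cells by -1.35 ± 0.19 and from shp53 cells by 1.55 ± 0.19. The shp53 + RASV12 cells differed from RASV12 cells by -2.06 ± 0.19 and from shp53 cells by 0.84 ± 0.19, or 0.54 with normexp background correction and quantile scaling.

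Plaur, the gene of the urokinase receptor, stood out in RASV12 cells only. It read 0.93, 1.79 and 1.92 in RASV12 + shp53 cells, 1.42, 2.05 and 1.99 in shp53 + RASV12 cells, 3.37, 2.83 and 3.37 in RASV12 cells, and 1.57, 1.42 and 1.53 in shp53 cells. Every RASV12 array was above all 9 arrays of the other groups, which overlapped one another. The difference was 1.69 ± 0.28 in RASV12 over shp53 cells (3.22-fold), -1.65 ± 0.28 in RASV12 + shp53 minus RASV12 cells and -1.37 ± 0.28 in shp53 + RASV12 minus RASV12 cells. The remaining differences were 0.31 or less in size, among them -0.27 ± 0.28 between RASV12 + shp53 and shp53 + RASV12 cells.

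Plat, which encodes the tissue-type activator, had another pattern than Plau, with high levels in RASV12 + shp53 and in shp53 cells. The signal was 1.88, 1.20 and 1.45 in RASV12 + shp53 cells and 0.01, -0.37 and -0.59 in shp53 + RASV12 cells. RASV12 cells had -0.12, 0.16 and -0.19, and shp53 cells had 1.44, 1.15 and 1.51. The high pair of groups did not overlap the low pair, while the groups within each pair overlapped. Plat was 3.54-fold higher in RASV12 + shp53 than in shp53 + RASV12 cells (1.83 ± 0.21). It was 1.56 ± 0.21 higher in RASV12 + shp53 than in RASV12 cells, and the difference was -1.42 ± 0.21 in RASV12 minus shp53 cells and -1.69 ± 0.21 in shp53 + RASV12 minus shp53 cells. RASV12 + shp53 and shp53 cells differed by 0.14 ± 0.21 (-0.15 without the arrays standing apart), and shp53 + RASV12 minus RASV12 cells gave -0.27 ± 0.21. Over the alternative settings the first of these ranged up to 0.48, and it was called with array-median scaling only (adjusted p = 0.0494 in limma). The activator genes therefore had opposite orders in single-vector cells: RASV12 cells had more Plau and less Plat signal than shp53 cells.

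**Figure D1:**
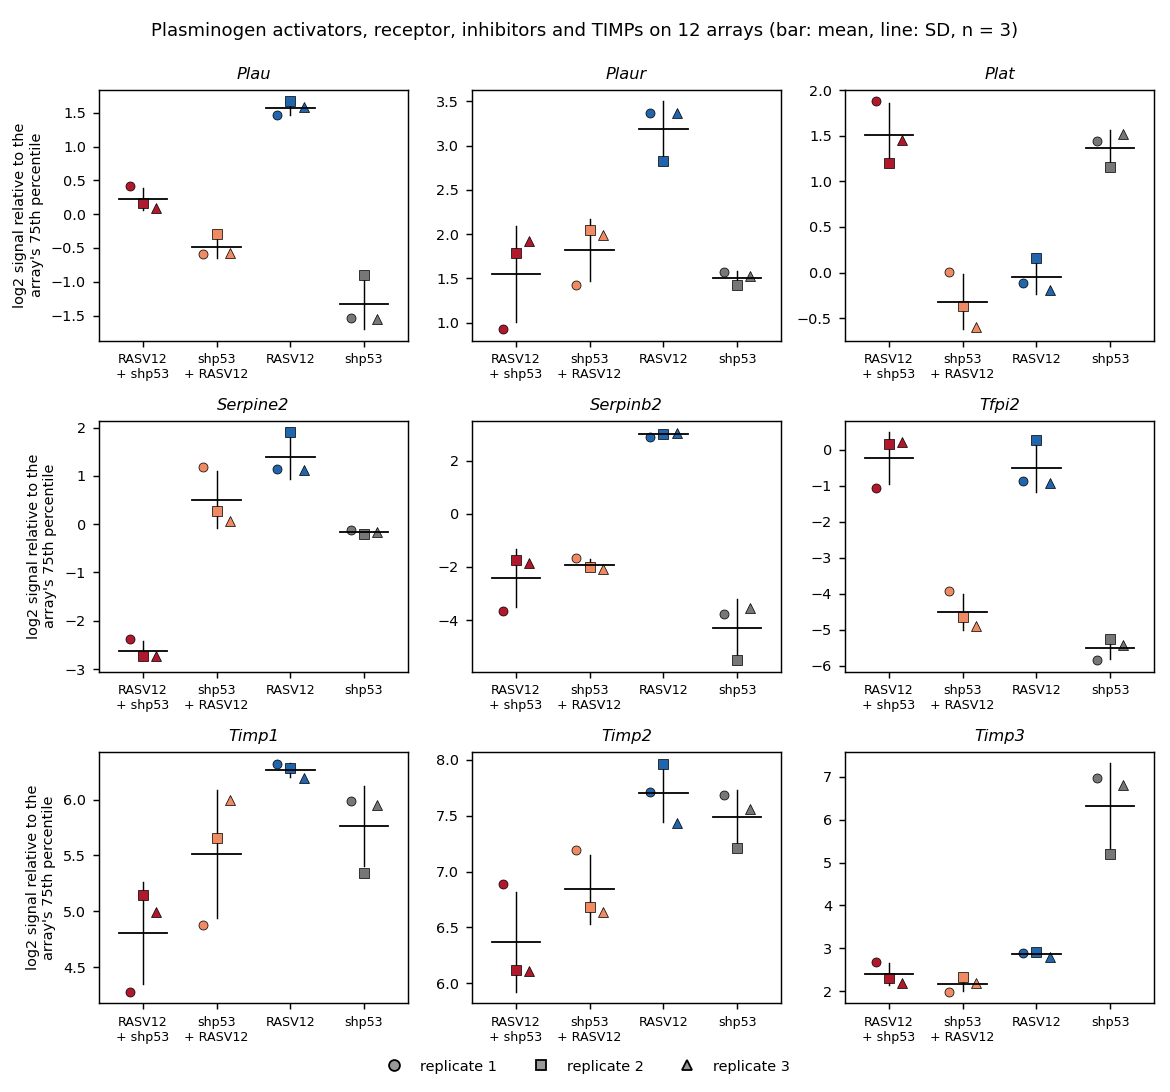
Log2 signal over the 75th percentile of the array (vertical axes, a scale per gene) for the 9 genes on 12 arrays, by group; points are arrays, marked by replicate, bars are means and lines SD (n = 3). Plau separates all 4 groups, Serpine2 is lowest in RASV12 + shp53 cells (-2.62 ± 0.20), Serpinb2 is highest in RASV12 cells (2.99 ± 0.08) and Timp3 is highest in shp53 cells (6.33 ± 0.99).

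Serpine2, which encodes a serpin that inhibits thrombin, urokinase and plasmin, was low in RASV12 + shp53 cells. The 3 arrays read -2.39, -2.74 and -2.73 in RASV12 + shp53 cells, 1.18, 0.27 and 0.07 in shp53 + RASV12 cells, 1.14, 1.91 and 1.12 in RASV12 cells, and -0.11, -0.21 and -0.16 in shp53 cells. All RASV12 + shp53 arrays were below the 9 others. Cells with the same vectors thus lay on opposite sides of shp53 cells, with a difference of -3.12 ± 0.29 in RASV12 + shp53 minus shp53 + RASV12 cells, or 8.72-fold lower. RASV12 + shp53 cells were 16.1-fold below RASV12 cells (-4.01 ± 0.29) and 5.49-fold below shp53 cells (-2.46 ± 0.29). RASV12 cells were 1.55 ± 0.29 above shp53 cells. The shp53 + RASV12 cells were 0.67 ± 0.29 above shp53 cells (0.31 without the arrays standing apart), and their difference from RASV12 cells was -0.88 ± 0.29 with overlapping arrays.
With normexp background correction and quantile scaling the Serpine2 differences were smaller, at -1.99 between the orders, -2.69 against RASV12 cells and -1.44 against shp53 cells.

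Serpinb2, which encodes an inhibitor of urokinase found inside and outside cells, had the widest range of the 9 genes. Its values were -3.65, -1.74 and -1.85 in RASV12 + shp53 cells and -1.67, -1.99 and -2.08 in shp53 + RASV12 cells. They were 2.89, 3.02 and 3.05 in RASV12 cells and -3.77, -5.51 and -3.56 in shp53 cells. The RASV12 arrays lay together and above all others, whereas the arrays standing apart were the low ones in RASV12 + shp53 and in shp53 cells. RASV12 cells were 154-fold above shp53 cells (7.27 ± 0.56). The 2-vector cells were 42.3-fold (RASV12 + shp53, -5.40 ± 0.56) and 29.9-fold (shp53 + RASV12, -4.90 ± 0.56) below RASV12 cells, and 1.87 ± 0.56 and 2.37 ± 0.56 above shp53 cells in the same order. RASV12 + shp53 and shp53 + RASV12 cells overlapped, with a difference of -0.50 ± 0.56. Without the arrays standing apart this difference was 0.24, so its sign rested on them, and that of RASV12 over shp53 cells was 6.64. The last value was 4.63 with normexp background correction and quantile scaling. With that setting the 2-vector cells exceeded shp53 cells by 0.75 (RASV12 + shp53) and 0.90 (shp53 + RASV12).

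Tfpi2, which encodes a Kunitz-type inhibitor of plasmin and other serine proteases, was high in the groups that received RASV12 first or alone. It read -1.07, 0.17 and 0.21 in RASV12 + shp53 cells, -3.94, -4.66 and -4.90 in shp53 + RASV12 cells, -0.86, 0.27 and -0.92 in RASV12 cells, and -5.86, -5.27 and -5.41 in shp53 cells. RASV12 + shp53 and RASV12 cells overlapped and every one of their arrays was above every array of the other groups, while shp53 + RASV12 cells lay above shp53 cells without overlap. RASV12 + shp53 cells differed from RASV12 cells by 0.27 ± 0.42, which came to 1.08 without the arrays standing apart. RASV12 + shp53 exceeded shp53 + RASV12 cells by 4.27 ± 0.42, or 4.97 without those arrays. The high groups exceeded shp53 cells by 5.28 ± 0.42 (RASV12 + shp53, 38.9-fold) and 5.01 ± 0.42 (RASV12, 32.2-fold), against 1.02 ± 0.42 for shp53 + RASV12 over shp53 cells. The shp53 + RASV12 cells were 15.9-fold below RASV12 cells (-3.99 ± 0.42). With normexp and quantile scaling, RASV12 + shp53 cells exceeded shp53 + RASV12 cells by 2.06, RASV12 + shp53 and RASV12 cells exceeded shp53 cells by 2.26 and 2.08, and shp53 + RASV12 minus RASV12 cells gave -1.88. The difference of shp53 + RASV12 over shp53 cells, not called, was 0.20 with that setting.

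Timp1, a secreted inhibitor of most soluble metalloproteinases, was highest in RASV12 cells. The log2 signal was 4.28, 5.14 and 4.995 in RASV12 + shp53 cells, 4.88, 5.66 and 5.99 in shp53 + RASV12 cells, 6.31, 6.28 and 6.20 in RASV12 cells, and 5.99, 5.35 and 5.95 in shp53 cells. All RASV12 arrays lay above the other 9, and the groups next to each other below them overlapped. The largest difference was -1.46 ± 0.31 in RASV12 + shp53 minus RASV12 cells (2.74-fold lower). RASV12 + shp53 minus shp53 cells gave -0.96 ± 0.31 (-0.62 with array-median scaling, where it was not called), and the order of the vectors gave -0.70 ± 0.31. RASV12 minus shp53 cells gave 0.50 ± 0.31 (0.28 without the arrays standing apart). The shp53 + RASV12 cells differed from RASV12 cells by -0.75 ± 0.31 and from shp53 cells by -0.25 ± 0.31.

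Timp2, which inhibits metalloproteinases and also takes part in the activation of gelatinase A (Mmp2) by the membrane-type enzyme Mmp14, had its lower signals in the 2-vector groups. Its brighter probe read 6.89, 6.12 and 6.11 in RASV12 + shp53 cells, 7.20, 6.69 and 6.64 in shp53 + RASV12 cells, 7.72, 7.96 and 7.44 in RASV12 cells, and 7.68, 7.21 and 7.56 in shp53 cells. The single-vector groups overlapped each other and lay above both 2-vector groups. RASV12 + shp53 cells differed from RASV12 cells by -1.33 ± 0.25 and from shp53 cells by -1.11 ± 0.25. The shp53 + RASV12 cells differed from RASV12 cells by -0.86 ± 0.25 and from shp53 cells by -0.65 ± 0.25 (-0.96 without the arrays standing apart), and the order of the vectors gave -0.47 ± 0.25. The second probe gave -1.80 ± 0.18 and -1.12 ± 0.18 for RASV12 + shp53 minus RASV12 and minus shp53 cells. It gave -1.04 ± 0.18 and -0.35 ± 0.18 for shp53 + RASV12 minus RASV12 and minus shp53 cells, and the comparison with shp53 cells was not called on the first probe. RASV12 minus shp53 cells came to 0.22 ± 0.25 on the first probe (-0.05 without the arrays standing apart) and 0.68 ± 0.18 on the second. The order of the vectors gave -0.77 ± 0.18 on the second probe, where no 2 groups overlapped.

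Timp3, which binds to the extracellular matrix and also inhibits ADAM and ADAMTS proteases, was high in shp53 cells and low wherever RASV12 was present. Its signal was 2.68, 2.31 and 2.19 in RASV12 + shp53 cells, 1.99, 2.33 and 2.20 in shp53 + RASV12 cells, 2.89, 2.91 and 2.80 in RASV12 cells, and 6.98, 5.19 and 6.81 in shp53 cells. Even the lowest shp53 array, replicate 2, was above all 9 arrays of the groups with RASV12. The difference from shp53 cells was -3.93 ± 0.38 in RASV12 + shp53 cells (15.3-fold lower), -4.15 ± 0.38 in shp53 + RASV12 cells (17.8-fold lower) and -3.46 ± 0.38 in RASV12 cells (11.0-fold lower). Without the arrays standing apart, which removes shp53 replicate 2, these were -4.64, -4.63 and -4.05. The 3 RASV12-carrying groups differed from each other by 0.69 or less in size, and the order of the vectors gave 0.22 ± 0.38 with overlapping arrays (-0.01 without the arrays standing apart). RASV12 + shp53 minus RASV12 cells gave -0.47 ± 0.38 and shp53 + RASV12 minus RASV12 cells -0.69 ± 0.38.

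**Figure D2:**
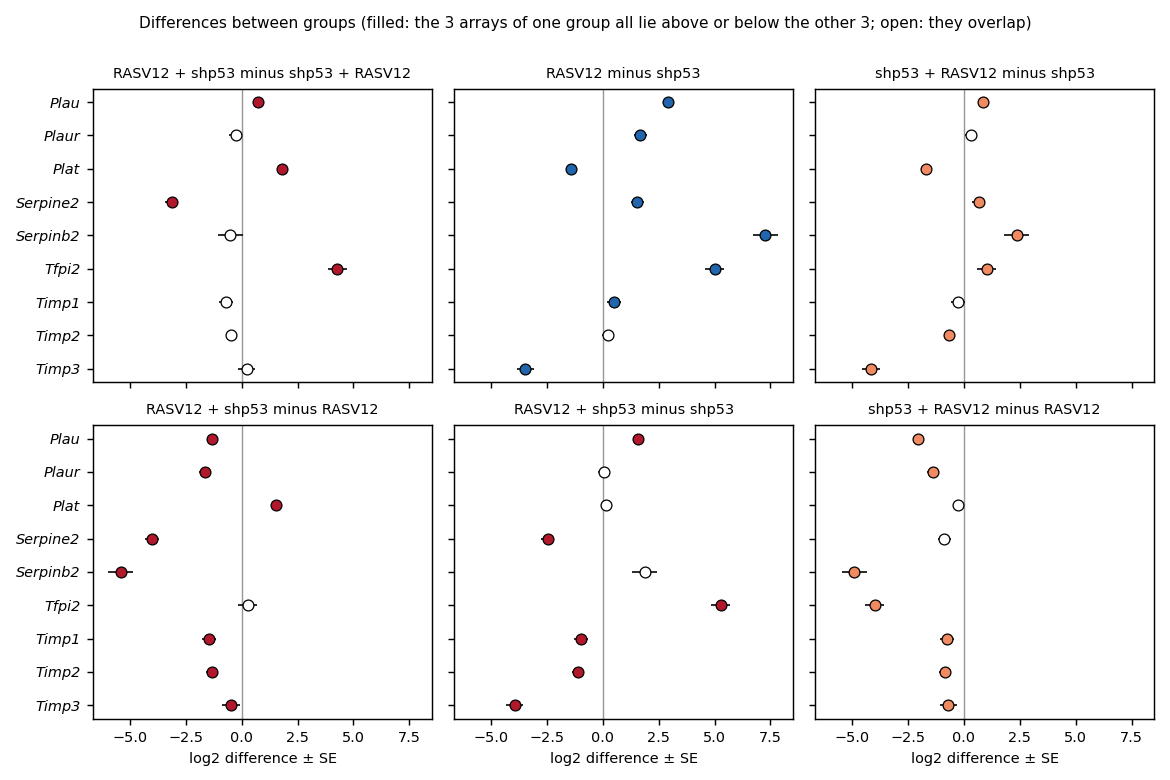
Log2 difference with its SE (horizontal axis) for the 9 genes in the 6 comparisons; filled points mark groups whose 3 arrays all lie on one side of the other 3, and open points groups that overlap. The widest difference is Serpinb2 in RASV12 minus shp53 cells (7.27), and between the orders Tfpi2 (4.27) and Serpine2 (-3.12) lie on opposite sides.

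Markers of macrophages, which also make plasminogen activators and TIMPs, were read beside Timp3. The summed linear signal of 10 macrophage genes, in multiples of the array's 75th percentile, ranged from 6.03 to 9.14 in RASV12 + shp53 cells, 8.98 to 12.4 in shp53 + RASV12 cells, 9.62 to 21.0 in RASV12 cells and 12.02 to 94.9 in shp53 cells. All 10 were well above background on the shp53 arrays, 8 to 9 on RASV12 arrays and 5 to 6 on shp53 + RASV12 arrays. On each RASV12 + shp53 array 5 were, all from among Cd68, Csf1r, Lyz2, Itgam, Fcer1g and Cd14. Adgre1, Aif1, Ptprc and Tyrobp were not well above background on those arrays. The low value of 12.02 belonged to replicate 2 of shp53 cells, and the other arrays of that group were at 94.5 and 94.9. On that replicate Timp3 read 5.19, against 6.98 and 6.81 on the other shp53 arrays, so the lowest sum and the lowest Timp3 signal of the group fell on the same array. The sum of 12.02 lay within the range of RASV12 cells, whose arrays read 2.80 to 2.91 for Timp3. The part of macrophages in these values was not tested.

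Other marker lists were read beside Tfpi2 and Serpinb2, which trophoblast and epithelial cells express strongly. The 9 trophoblast genes on the array summed to 44.9 to 80.5 in RASV12 + shp53 cells, 42.9 to 79.7 in shp53 + RASV12 cells, 42.9 to 84.6 in RASV12 cells and 29.3 to 35.1 in shp53 cells. Between 3 and 6 of them were well above background on an array. On replicate 1 of RASV12 cells all but Cdx2, Elf5 and Tpbpa were, and these were so on no array. The 10 epithelial genes summed to 3.96 to 13.9, 4.49 to 15.4, 9.70 to 12.6 and 3.76 to 4.06 in the same order of groups. Between 3 and 7 of them were well above background. The 7, on replicate 3 of shp53 cells, were all the listed keratins with Trp63 and Esrp1, whereas Cdh1, Epcam and Cldn4 were not on any array. Megakaryocyte and platelet genes (5 on the array) summed to 0.0614 to 0.0961 in RASV12 + shp53, 0.0760 to 0.107 in shp53 + RASV12, 7.09 to 8.94 in RASV12 and 1.29 to 7.37 in shp53 cells, with Gp9 well above background on no array and Pf4 and Ppbp on the single-vector arrays only. The 8 endothelial genes summed to between 1.07 and 4.60. Between 2 and 4 of them were well above background on an array, and Tek and Tie1 on none. The part of these lists in the results was not tested.

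**Figure D3:**
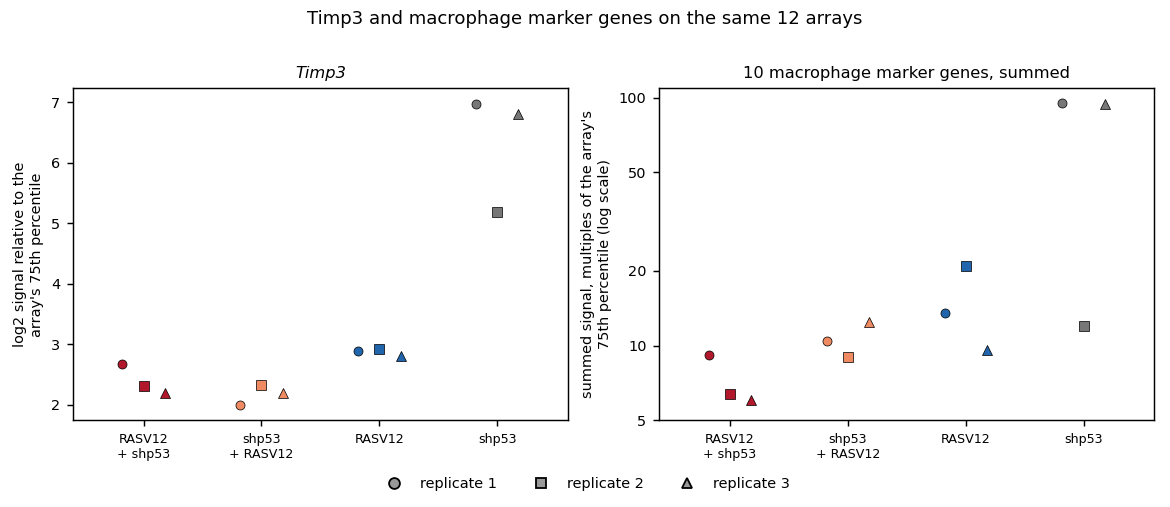
Timp3 (left, log2 signal over the 75th percentile of the array) and the summed signal of 10 macrophage marker genes (right, multiples of the 75th percentile, log scale) on the same 12 arrays; points are arrays, marked by replicate. Replicate 2 of shp53 cells has the lowest macrophage sum (12.02) and the lowest Timp3 signal (5.19) of its group.

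Set against all genes, the 9 moved as follows. In RASV12 + shp53 against shp53 + RASV12 cells, 3 of the 9 were called higher (Plau, Plat and Tfpi2), where 7.33% of all tested genes were, and 1 was called lower (Serpine2), where 8.47% were. RASV12 against shp53 cells had 5 called higher (Plau, Plaur, Serpine2, Serpinb2 and Tfpi2; 14.3% of all genes) and 2 lower (Plat and Timp3; 12.8%). In shp53 + RASV12 against shp53 cells, 2 were called higher (Plau and Serpinb2; 17.3% of all genes) and 2 lower (Plat and Timp3; 20.3%). RASV12 + shp53 against RASV12 cells had 1 higher (Plat; 17.2% of all genes) and 6 lower (all but Plat, Tfpi2 and Timp3; 21.7%). Against shp53 cells, RASV12 + shp53 cells had 3 higher (Plau, Serpinb2 and Tfpi2; 21.7% of all genes) and 4 lower (Serpine2 and the 3 TIMPs; 23.8%). The shp53 + RASV12 cells, against RASV12 cells, had 0 higher (10.3% of all genes) and 6 lower (all but Plat, Timp1 and Timp3; 15.1%), and all 9 differences were below 0. These comparisons chose the genes and share groups with each other, so the counts are a description. The median difference of the 9 was -0.27, 1.55, 0.31, -1.35, 0.04 and -0.88 in the 6 comparisons in the order given, where the median of all tested genes was 0.00, 0.05, 0.03, -0.07, 0.02 and -0.05. Scaling to the array median moved the median of all genes to 0.25, 0.19 and 0.36 in RASV12 + shp53 against shp53 + RASV12, RASV12 and shp53 cells. The share of called genes that were higher was then 68.5%, 63.6% and 68.6%, against 46.4%, 44.2% and 47.7% with the 75th percentile. Some calls of the 9 were unstable over the 24 alternatives. The Plau call between the orders was lost under 8 of them, with a difference between 0.56 and 0.96, among them leaving out any 1 array of RASV12 + shp53 cells or replicate 1 or 3 of shp53 + RASV12 cells. In RASV12 + shp53 against shp53 cells, Serpinb2, whose arrays overlapped there, was called under 19 (0.75 to 2.49) and lost its call without replicate 2 or 3 of RASV12 + shp53 or replicate 2 of shp53 cells. Timp1 was also called under 19 in that comparison (-1.16 to -0.62) and not without replicate 1 of RASV12 + shp53 or replicate 1 or 3 of shp53 cells. In shp53 + RASV12 against RASV12 cells, Timp2 was called under 18 (-1.04 to -0.74) and not without replicate 2 or 3 of shp53 + RASV12 or replicate 1 or 2 of RASV12 cells. The Serpine2 call there held under only 9 (-1.22 to -0.63), and only leaving out replicate 1 of RASV12 + shp53 or of shp53 + RASV12 cells, of the 12 arrays left out singly, kept it.

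The order of groups differed among the 9 genes. RASV12 cells had the highest mean for 6 of them (Plau, Plaur, Serpine2, Serpinb2, Timp1 and Timp2), RASV12 + shp53 cells for Plat and Tfpi2, and shp53 cells for Timp3. The lowest mean lay in shp53 cells for 4 genes (Plau, Plaur, Serpinb2 and Tfpi2), in RASV12 + shp53 cells for 3 (Serpine2, Timp1 and Timp2) and in shp53 + RASV12 cells for Plat and Timp3. Between the orders of the vectors, the activators Plau and Plat and the inhibitor Tfpi2 were therefore higher, and the inhibitor Serpine2 lower, in RASV12 + shp53 cells. Plaur, Serpinb2, Timp1, Timp2 and Timp3 overlapped between these groups on their brightest probes. The second Timp2 probe did not overlap and was lower in RASV12 + shp53 cells. Overlap was not counted over all genes, so it is a description. Each slide held 1 array of every group, and 44 of the 54 differences between groups had the same sign on all 3 slides. Signs within slides were not counted over all genes, so this count is a description. Within slides, RASV12 + shp53 minus shp53 + RASV12 cells gave 0.47 to 1.00 for Plau, 1.57 to 2.04 for Plat, -3.56 to -2.80 for Serpine2 and 2.87 to 5.10 for Tfpi2. Plaur (-0.50 to -0.06), Timp1 (-0.998 to -0.51) and Timp2 (-0.57 to -0.31) also kept a sign on all 3 slides, while Serpinb2 and Timp3 did not. RASV12 minus shp53 cells gave 6.61 to 8.53 for Serpinb2 and -4.09 to -2.28 for Timp3, where the smallest Timp3 gap was on the slide of shp53 replicate 2.

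Genes of the plasminogen system outside the 9 came from a list of 28, of which 21 were tested. Plasminogen itself (Plg) and the plasmin inhibitor Serpinf2 were among those not tested: Plg was well above background on 1 array, of shp53 + RASV12 cells, and Serpinf2 on none. RASV12 + shp53 against shp53 + RASV12 cells had 4 of the 21 called higher and 3 lower, and RASV12 against shp53 cells 6 higher and 1 lower. In shp53 + RASV12 against shp53 cells 2 were higher and 4 lower, and in RASV12 + shp53 against RASV12 cells 1 was higher and 5 lower. RASV12 + shp53 against shp53 cells had 3 higher and 5 lower, and shp53 + RASV12 against RASV12 cells 1 higher and 6 lower. The list's median difference was 0.07, 0.22, -0.16, -0.19, -0.17 and -0.51 in this order of comparisons. Called in either direction were 33.3%, 33.3%, 28.6%, 28.6%, 38.1% and 33.3% of the list, where all tested genes gave 15.8%, 27.1%, 37.6%, 38.9%, 45.5% and 25.4%.

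Itga3, an integrin subunit that can associate with Plaur, was -3.68, -4.47 and -4.19 in RASV12 + shp53 cells and -1.57, -1.82 and -1.95 in shp53 + RASV12 cells, and fell by 2.33 ± 0.30 between them (adjusted p = 0.000494 in limma). RASV12 cells, at -0.39, -1.10 and -0.48, exceeded shp53 cells, at -3.33, -2.59 and -3.57, by 2.50 ± 0.30 (adjusted p = 0.000187). With normexp and quantile scaling these differences were -0.84 and 1.35. Its common partner chain Itgb1 rose by 1.33 ± 0.13 in RASV12 + shp53 over shp53 + RASV12 cells (adjusted p = 0.000112). St14, a membrane serine protease that can activate urokinase, was well above background on no RASV12 + shp53 array and at least 9.62-fold lower there than in RASV12 cells (adjusted p = 3.43e-05). With normexp and quantile scaling the St14 difference was -0.74, less than this bound. Hgf, a growth factor that serine proteases activate, was -3.17, -3.58 and -3.61 in RASV12 + shp53 cells against 0.10, -1.05 and -1.05 in shp53 + RASV12 cells. That difference of -2.79 ± 0.43 (adjusted p = 0.0018) did not pass with the close pairs averaged (adjusted p = 0.0665, the highest over its alternatives; the lowest was 4.96e-06), and it was -1.42 with normexp and quantile scaling. Lrp1, the endocytic receptor that clears activator and inhibitor complexes, passed in none of the 6 comparisons, with group means from 3.08 to 3.49 and a smallest adjusted p of 0.222. With array-median scaling Lrp1 passed in RASV12 + shp53 over shp53 cells (adjusted p = 0.019, range over its alternatives 0.019 to 0.509) and over RASV12 cells (adjusted p = 0.0489, range 0.0489 to 0.612).

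**Figure D4:**
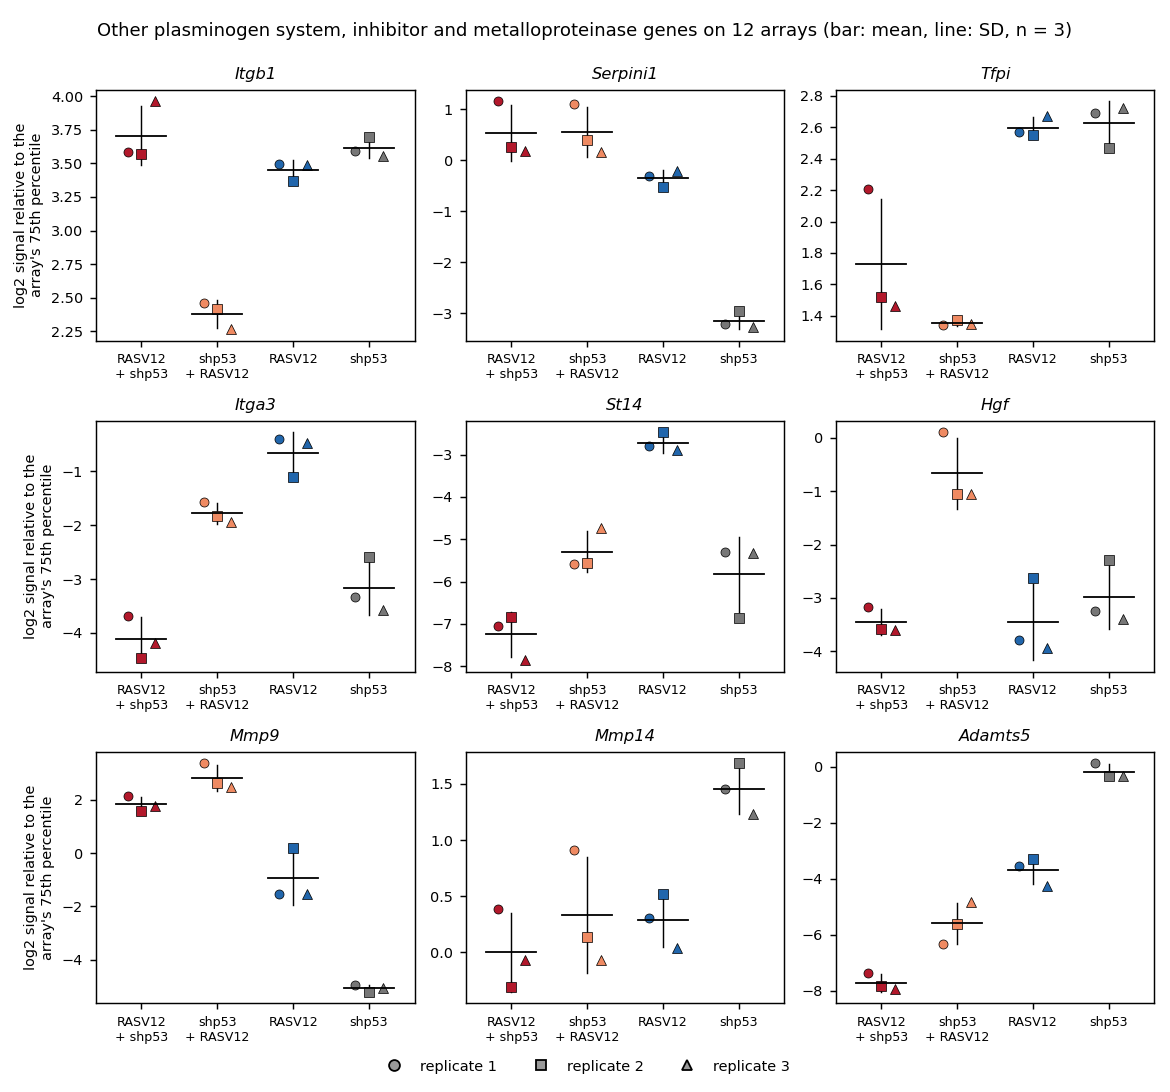
Log2 signal over the 75th percentile of the array (vertical axes, a scale per gene) on 12 arrays by group for 9 genes outside the chosen set; points are arrays, marked by replicate, bars are means and lines SD (n = 3). Tfpi is lower in both 2-vector groups, Itgb1 is lowest in shp53 + RASV12 cells, Hgf is highest in shp53 + RASV12 cells, Serpini1 and Mmp9 are lowest in shp53 cells, and Mmp14 and Adamts5 are highest there; St14 and Adamts5 were not well above background in RASV12 + shp53 cells.

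Among other serpins and protease inhibitors, 25 of a list of 36 were tested. The counts were 2 higher and 4 lower in RASV12 + shp53 against shp53 + RASV12 cells, 9 and 5 in RASV12 against shp53, 5 and 7 in shp53 + RASV12 against shp53, 3 and 12 in RASV12 + shp53 against RASV12, 6 and 11 in RASV12 + shp53 against shp53, and 3 and 9 in shp53 + RASV12 against RASV12 cells. The list's median difference was -0.22, 0.16, -0.41, -0.70, -0.89 and -0.34 in this order. In the order comparison 24.0% of the list was called, against 15.8% of all genes, and in the other 5 between 48.0% and 68.0%, against 25.4% to 45.5%. Serpini1, which encodes neuroserpin, an inhibitor of the tissue-type activator, rose against shp53 cells by 3.68 ± 0.29 in RASV12 + shp53, 3.70 ± 0.29 in shp53 + RASV12 and 2.80 ± 0.29 in RASV12 cells (adjusted p = 6.24e-06, 1.09e-05 and 8.61e-05 in limma). With normexp and quantile scaling Serpini1 gave 2.35, 2.38 and 1.62. The differences of its target gene Plat were 0.14 ± 0.21, -1.69 ± 0.21 and -1.42 ± 0.21 in the same groups. Tfpi, the relative of Tfpi2 that inhibits the tissue factor pathway, had means of 1.73 ± 0.41 in RASV12 + shp53, 1.36 ± 0.02 in shp53 + RASV12, 2.60 ± 0.07 in RASV12 and 2.63 ± 0.14 in shp53 cells (SD, n = 3 each). It fell by 1.27 ± 0.19 in shp53 + RASV12 against shp53 cells (adjusted p = 0.000496). Serpina3f read -7.45, -7.53 and -7.27 in RASV12 + shp53 cells, not well above background, and was at least 12.7-fold below shp53 + RASV12 cells at -0.97, -2.94 and -3.05 (adjusted p = 0.000116). With normexp and quantile scaling this difference was -0.98, less than the bound. Spint1, which encodes an inhibitor of St14, rose against shp53 cells by 3.51 ± 0.47 in RASV12 + shp53 (adjusted p = 0.000208) and by 4.23 ± 0.47 in shp53 + RASV12 cells (adjusted p = 8.74e-05), or by 1.09 and 1.47 with normexp and quantile scaling. Spint1 also rose by 2.51 ± 0.47 in RASV12 cells (adjusted p = 0.00292), a call lost with normexp (0.56, adjusted p = 0.178, range over its alternatives 3.12e-05 to 0.178) and with the close pairs averaged.

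The metalloproteinases and regulators that TIMPs act on or with formed a list of 32, of which 29 were tested. They gave 1 higher and 3 lower in RASV12 + shp53 against shp53 + RASV12 cells, 7 and 7 in RASV12 against shp53, 5 and 12 in shp53 + RASV12 against shp53, 3 and 10 in RASV12 + shp53 against RASV12, 7 and 12 in RASV12 + shp53 against shp53, and 3 and 7 in shp53 + RASV12 against RASV12 cells. The list's median difference was -0.33, -0.10, -0.47, -0.17, -0.58 and -0.04 in this order. In the order comparison 13.8% of the list was called, against 15.8% of all genes, and in the other 5 between 34.5% and 65.5%, against 25.4% to 45.5%. Adamts5, an aggrecan-cleaving enzyme that Timp3 inhibits, was like Timp3 highest in shp53 cells. Against shp53 cells it was at least 56.0-fold lower in RASV12 + shp53 cells (adjusted p = 2.11e-07 in limma), and it fell by 5.42 ± 0.37 in shp53 + RASV12 cells (adjusted p = 4.29e-06) and by 3.51 ± 0.37 in RASV12 cells (adjusted p = 8.86e-05). With normexp and quantile scaling these 3 Adamts5 differences were -2.11, -2.02 and -1.68, the first of them less than its bound. Mmp9, gelatinase B and a target of Timp1, rose against shp53 cells by 6.92 ± 0.42 in RASV12 + shp53 (adjusted p = 9.69e-07), 7.91 ± 0.42 in shp53 + RASV12 (adjusted p = 9.98e-07) and 4.13 ± 0.42 in RASV12 cells (adjusted p = 7.61e-05), or by 3.74, 4.70 and 1.63 with normexp and quantile scaling. Mmp14, with which Timp2 acts, fell against shp53 cells by 1.45 ± 0.27 in RASV12 + shp53 (adjusted p = 0.00164), 1.13 ± 0.27 in shp53 + RASV12 (adjusted p = 0.0088) and 1.17 ± 0.27 in RASV12 cells (adjusted p = 0.00943). The last 2 calls were lost with the close pairs averaged (adjusted p = 0.13 and 0.127, the highest over their alternatives; the lowest were 0.000342 and 0.000737). Mmp2, the enzyme that Timp2 and Mmp14 help to activate, passed in no comparison, with group means from 1.72 to 2.69. Without the arrays standing apart Mmp2 was lower than in shp53 cells in RASV12 + shp53, shp53 + RASV12 and RASV12 cells (adjusted p = 0.000109, 0.000304 and 0.000936; highest over the alternatives 0.37, 0.898 and 0.483). Without replicate 1 of shp53 + RASV12 cells alone, the adjusted p was 0.0109, 0.0144 and 0.031 in the same order. Timp4, the remaining TIMP, was dim, with means from -5.41 to -4.73, and passed in none of the 6 comparisons (smallest adjusted p = 0.223).

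Genes whose values followed those of a member most closely over the 12 arrays were picked by Pearson r, which is a description, since the arrays fall into 4 groups. For Plau they were Dcaf4 (0.965), Fabp7 and Dusp10, and for Plaur Cfl2 (0.987), Tmem128 and Ywhaq. Plat was followed by Pgrmc2 (0.981), Ank2 and Bcl11b, Serpine2 by S100b (0.983), Lrrc3b and Chst1, and Serpinb2 by Sprr2g (0.966), Rabggta and Lce3a. Tfpi2 was followed by Sdcbp2 (0.973), Nkain1 and Stard3nl, Timp1 by Lats2 (0.969), Ptpn11 and Slain2, and Timp2 by Ly6a (0.983), Ly6c1 and Il34. Those for Timp3 were Smpd3 (0.992), Stab1, a scavenger receptor gene of macrophages, and Rab29.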

How the data were processed

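RNA (100 ng per sample, per the labels' protocols) from 12 cultures in 4 groups of 3 was measured on 1-colour Agilent arrays. Per the file headers, the authors deposited a processed signal intensity per spot from Agilent Feature Extraction, background-subtracted and not scaled between arrays, with flags of 0 or 1 for spots that were well above background, outlying or saturated. The headers give version 11.5.1.1 and the submitters' processing notes 10.7.3.1. A deposited table by the authors holds log2 values of 25916 probes. Its columns had r of 0.990 to 0.9998 with values rebuilt here relative to each probe's median over the shp53 arrays. The share of probes within 0.01 of the table ranged from 0.0426% (shp53 + RASV12 replicate 3) to 99.6% (RASV12 replicate 1), so the table was not reproduced exactly.

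From the intensities, log2 signal minus the 75th percentile of all non-control spots was computed per array, 1717 outlying or non-uniform spot values were left out and the spots of a probe averaged. Probes were named through RefSeq accessions (28330 of 39429 had 1 gene, and 11099 none). A probe stayed in where some group had all 3 of its arrays well above background, and the brightest kept probe stood for a gene. All 14443 genes were fitted in limma 3.58.1 (R 4.3.3, with version 1.17.8 of the data.table package) with 1 mean per group and Benjamini-Hochberg adjustment. With 3 arrays against 3, an exact permutation test cannot give a p under 0.1. The fit code was also run on simulated, independently drawn arrays. These lacked the close pairs of the real arrays, so that run does not bear on the printed p-values. The design text calls the replicates independent and biological. Whether the closest pair of each group shared a litter or a day is not given in the sources used here, and if it did, the printed p-values are too small. A fold against a group with no array well above background is a bound, "at least", computed from the lowest signal that was still well above it.

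The 9 genes, the 3 lists, the 6 marker lists and the tests were chosen with earlier results of these data known. Named were the 9, Trp53, a fixed set of 13 further genes, up to 4 called genes per list and comparison with the smallest adjusted p and groups that do not overlap, and for each of the 9 the 3 most similar genes. Some named genes are left out of the text for length. Same-numbered arrays shared a slide. Their deviations from the group means correlated at over 0.1 in all 3 pairs of RASV12 + shp53 and shp53 + RASV12 arrays (0.320 to 0.598), so the numbers pair the arrays in that comparison, and in none of the other 5. Promoter windows come from RefSeq (GRCm38.p6), and no array coordinates are given, since the headers name an older build. The alternatives were array-median and quantile scaling, normexp background correction (offset 50, on median pixel signals) with quantile scaling, other probe filters, the mean of a gene's probes, fits of 2 groups, a robust trended variance, the slide (equal to the replicate number) as a replicate block, an adjusted p under 0.01, the authors' table, the closest pair of arrays in a group averaged, leaving out the arrays standing apart and leaving out each array. Figures used matplotlib.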

Additional observations from a re-analysis of the deposited data

How the results depend on the processing

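Of 1296 differences of the 9 genes recomputed under the alternatives, 1253 moved by less than the spread between replicates, 43 moved by more and 0 turned a called direction. Called differences of the 9 that moved by over 1.5 times stand beside the results. The slide, equal to the replicate number, was also fitted as a block. Deviations of same-numbered arrays correlated between -0.34 and 0.60, above 0.1 in 8 of 18 pairs. Between the orders, where the numbers pair the arrays, the block changed no call of the 9 genes. With the replicate block, 4, 7, 5, 7, 7 and 5 of the 9 genes were called in the comparisons in the order RASV12 + shp53 against shp53 + RASV12, RASV12 against shp53, shp53 + RASV12 against shp53, RASV12 + shp53 against RASV12, RASV12 + shp53 against shp53 and shp53 + RASV12 against RASV12, where the fit without it called 4, 7, 4, 7, 7 and 6. Counts below follow this order where 6 are given. Over all 14443 tested genes the block gave 2267, 3933, 5552, 5710, 6672 and 3743 calls. The fit without it gave 2282, 3916, 5432, 5613, 6578 and 3666. With each array left out in turn, the calls over all genes were 1485 to 2804, 2723 to 4714, 3804 to 6280, 4155 to 6288, 4973 to 7392 and 2142 to 4536. Leaving out each array in turn gave 3 to 4, 7 to 7, 4 to 6, 7 to 8, 6 to 7 and 4 to 6 of the 9, 4 to 8, 4 to 8, 6 to 9, 4 to 7, 3 to 8 and 6 to 10 of the plasminogen list, 3 to 9, 10 to 15, 10 to 15, 10 to 17, 13 to 19 and 9 to 13 of the inhibitor list, and 1 to 5, 12 to 17, 14 to 18, 9 to 14, 15 to 21 and 7 to 11 of the metalloproteinase list.

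The close pairs of arrays moved the counts most. With them averaged, the 9 genes gave 4 calls in RASV12 against shp53, 2 in shp53 + RASV12 against shp53, 4 in RASV12 + shp53 against shp53 and 3 in shp53 + RASV12 against RASV12 cells; the plasminogen list gave 2, 2, 2, 3, 2 and 2; the inhibitor list 1 between the orders, 5 in RASV12 against shp53, 4 and 10 in RASV12 + shp53 against RASV12 and shp53, and 2 in shp53 + RASV12 against RASV12 cells; and the metalloproteinase list 0, 9, 8, 5, 12 and 3 (limma; beside the 0, 3 genes had an unadjusted p under 0.05). Over all genes the calls with the pairs averaged were 424, 1029, 1702, 1490, 2480 and 393, the lowest of the alternatives. They were highest without the arrays standing apart, which leaves only the close pairs. That setting called 6939, 8451, 9875, 9652, 10440 and 8401 of the 14443 genes, so the counts of the 9 and of the lists are a description. Without those arrays the 9 genes gave 8 calls in shp53 + RASV12 against shp53 cells, the plasminogen list 15, 15, 13, 15, 15 and 16, the inhibitor list 18 between the orders, 23 in shp53 + RASV12 against shp53 and 21 against RASV12 cells, and the metalloproteinase list 19 between the orders, 24 in RASV12 against shp53, and 21 and 19 in RASV12 + shp53 and shp53 + RASV12 against RASV12 cells. At an adjusted p under 0.01 the plasminogen list gave 3 between the orders, 3 in RASV12 and 2 in RASV12 + shp53 against shp53 cells, the inhibitor list 3 between the orders, 9 in RASV12 + shp53 and 6 in shp53 + RASV12 against RASV12 cells, and the metalloproteinase list 1 between the orders. That last count was 2 with the mean of probes, no filter, quantile scaling or a filter on all arrays, and 1 with normexp or fits of 2 groups. The plasminogen list in RASV12 + shp53 against shp53 cells gave 5 with normexp and 4 with fits of 2 groups. The filter on all arrays, which tests fewer genes, left 9, 7, 9 and 10 calls of the inhibitor list in RASV12 and shp53 + RASV12 against shp53 and in RASV12 + shp53 against RASV12 and shp53 cells, and 9 of the metalloproteinase list in RASV12 against shp53 cells. Over all genes that filter gave 2981, 4299, 4666 and 5320 calls in these inhibitor list comparisons, against 3916, 5432, 5613 and 6578 in the main fit. Calls over all genes were not counted at an adjusted p under 0.01. The cause of these changes was not tested.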
